A study of Mus musculus with 3 samples.

Results

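The 10 glycolysis genes described here are Slc2a1, Hk2, Gpi1, Aldoa, Tpi1, Pgk1, Pgam1, Eno1, Pkm and Ldha, taken by symbol from the gene list of the deposited matrices, out of 32285 genes in all. All 10 symbols were found. Aldoa has a pair of identifiers there, and the one used (ENSMUSG00000030695) held 33044 unique molecular identifiers (UMIs, counts of single captured transcripts) against 3 for the other. The genes were measured in single cells of the mouse brain, captured in droplets with a 3′ kit, that had been sorted by flow cytometry as CD45int CD11b+, the usual gate for microglia, the resident macrophages of the brain. Every mouse, sham animals included, carried a knockout of Apoe, and cells were taken at day 4 from 3 groups: NMOSD induction with the peptide APOE130-149, NMOSD induction with a control peptide, and sham induction with PBS. NMOSD stands for neuromyelitis optica spectrum disorder, in which autoantibodies attack astrocytes of the optic nerve and spinal cord. Each group was 1 library from a pool of 4 mice, so differences between treatments have no replicate check and were not tested, while differences between cell classes were tested over the 3 libraries. The ages, sexes and strain background of the mice are not given in the labels.

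Glycolysis breaks glucose down to pyruvate in the cytosol and yields ATP without oxygen, and lactate dehydrogenase then turns pyruvate into lactate. Resting microglia are known to rely largely on mitochondrial respiration and to raise glycolysis when activated, while neutrophils hold few mitochondria and draw most of their ATP from glycolysis. Slc2a1 encodes the glucose transporter GLUT1, Hk2 hexokinase, which traps glucose in the cell as a phosphate, and Gpi1 the isomerase of the next step. Aldoa encodes the aldolase that splits the sugar, Tpi1 the isomerase that interconverts the pieces, Pgk1 and Pkm the kinases that make ATP, Pgam1 and Eno1 the mutase and enolase between them, and Ldha lactate dehydrogenase A.

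Cells were assigned to classes by marker genes that do not include any of the 10 (thresholds in the methods). In the order NMOSD + APOE130-149, NMOSD + control peptide and sham + PBS, the classes held 42, 69 and 38 neutrophils, 24, 47 and 20 monocytes, and 27, 32 and 27 border-associated macrophages, the macrophages of the meninges and vessels. Microglia were divided into dividing cells (56, 104 and 48), cells high in Spp1 and Lpl (30, 53 and 19) and the other microglia (1507, 3947 and 2876). In neutrophils the summed neutrophil markers lay between 403310 and 414726 CPM (UMIs scaled to a fixed total per class and library). In every other class they lay at 641 CPM or below. These same markers set the classes, so the values describe the classes and do not check them. The gate is meant to leave out cells with much CD45, so the neutrophils and monocytes are those that passed it. The border-associated macrophages were less clean, with 11209 to 13987 CPM of microglia markers against 30532 to 33072 CPM in other microglia. Of 12155 barcodes, 11267 passed the filter on cells, with a median of 9991, 7848 and 7124 UMIs in the same order, and 9 barcodes were shared by the control peptide and sham libraries, 3 by both NMOSD libraries and 0 by the remaining pair. The sham library held 1035 cells below the limit of 2000 UMIs for a class, against 155 and 351 in the NMOSD + APOE130-149 and NMOSD + control peptide libraries.

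The 10 genes lie on 6 chromosomes of the GRCm38 build in the GENCODE M21 annotation: Slc2a1 at chr4:119108711-119137983 and Eno1 at chr4:150236721-150248879, both on the + strand, Hk2 at chr6:82725025-82774454 and Tpi1 at chr6:124810586-124814296, both on the - strand, Ldha at chr7:46841475-46855627 on the + strand, Gpi1 at chr7:34201330-34230336 and Aldoa at chr7:126795234-126800751 on the - strand, Pkm at chr9:59656368-59679375, Pgam1 at chr19:41911923-41918660 and Pgk1 at chrX:106187100-106203699, all on the + strand. Only 3′ ends were counted, so the splice forms of Pkm are not resolved. Slc2a1, Hk2, Aldoa and Tpi1 overlap a counted gene on the opposite strand, and whether the counting used strand is not given in the sources used here. In their last 400 bases the transcripts of Gpi1, Aldoa, Tpi1, Eno1, Pkm and Ldha resemble those of 1 to 6 other genes, mostly pseudogenes, over at least 90 bases at 95% identity, and reads of these genes may be split or lost. Among the counted genes these are Aldoart1 for Aldoa, Eno1b for Eno1, and Adh5 and Mrpl27 for Gpi1.

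Many glycolysis genes are textbook targets of the transcription factor HIF-1, whose binding element has the core ACGTG or GCGTG, so the promoters of the genes were searched for these letters. RefSeq promoters of the GRCm38.p6 build were found for all 10 genes, with 16 start sites, and the 250 bases before each start were read. One or the other core stood, on either strand, in 12 of the 16 promoters, against 38.6% of all 32851 mouse promoters. ACGTG alone was in 16.6% and GCGTG alone in 28.2% of all mouse promoters. Aldoa and Eno1 each have a pair of overlapping windows with the same matches, which the 12 counts again. By gene, 8 of the 10 had a core in at least 1 promoter. Some genes have several promoters, so this count is not comparable with the share of promoters. Gpi1 and Tpi1 had neither core. Shown are the genes with the largest rise in neutrophils (Gpi1 and Pgk1), the gene at the end of the pathway (Ldha, the start site with the most matches), and the gene that was lower (Hk2), 5′ to 3′ with matches on either strand in capitals. They lie at chr7:34230337-34230586 on the - strand (Gpi1), chrX:106186850-106187099 on the + strand (Pgk1), chr7:46845554-46845803 on the + strand (Ldha) and chr6:82774455-82774704 on the - strand (Hk2).
Gpi1: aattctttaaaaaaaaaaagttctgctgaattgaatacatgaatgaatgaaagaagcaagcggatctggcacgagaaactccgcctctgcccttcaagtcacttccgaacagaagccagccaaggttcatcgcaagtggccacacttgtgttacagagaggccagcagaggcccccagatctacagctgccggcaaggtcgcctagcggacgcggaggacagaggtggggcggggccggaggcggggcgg
Pgk1: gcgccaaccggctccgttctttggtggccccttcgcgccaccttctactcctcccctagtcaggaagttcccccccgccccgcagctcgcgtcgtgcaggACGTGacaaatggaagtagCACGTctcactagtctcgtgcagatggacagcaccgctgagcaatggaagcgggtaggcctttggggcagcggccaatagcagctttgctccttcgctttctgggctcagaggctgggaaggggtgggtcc
Ldha: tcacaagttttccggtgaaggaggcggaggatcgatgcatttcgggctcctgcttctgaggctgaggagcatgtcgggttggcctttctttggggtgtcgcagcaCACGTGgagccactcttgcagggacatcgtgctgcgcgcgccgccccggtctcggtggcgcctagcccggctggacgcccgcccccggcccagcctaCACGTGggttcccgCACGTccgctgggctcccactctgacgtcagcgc
Hk2: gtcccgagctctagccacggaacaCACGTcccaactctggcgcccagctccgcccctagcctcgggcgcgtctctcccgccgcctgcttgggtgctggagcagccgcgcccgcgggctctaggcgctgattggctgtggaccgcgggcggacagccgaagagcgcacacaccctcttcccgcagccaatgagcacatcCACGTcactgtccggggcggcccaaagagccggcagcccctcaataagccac
Gpi1 thus had 0 matches, Pgk1 2, Ldha 5 and Hk2 2, where each CACGTG of Ldha counts as 2 because it holds ACGTG on both strands. A match is a description of the letters, and whether any of them is a site in use was not tested. In neutrophils Gpi1, without a match, and Pgk1, with 2, were both higher, and Hk2, with 2, was lower.

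Neutrophils, the short-lived phagocytes of the blood, were higher than other microglia in most of the 10 genes. Against other microglia 8 genes were higher and 1, Hk2, was lower. Levels between classes are given as TMM-scaled CPM, CPM corrected for composition with edgeR's trimmed mean of M-values, and tests are edgeR's quasi-likelihood test on UMIs summed per library and class, with Benjamini-Hochberg adjusted p-values over all 8964 genes tested and a threshold of 0.05. Of all 8874 genes outside the marker lists, 28.4% were higher and 36.7% lower in neutrophils, with a median log2 fold change of -0.23, while the median of the 10 genes was 2.02. The p-values measure the scatter left after class and library, as a block, are fitted, pooled over all classes. They do not measure the spread between the 3 pools, which also differ in treatment.

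Gpi1 had 1052, 1158 and 949.7 TMM-scaled CPM in neutrophils of the NMOSD + APOE130-149, NMOSD + control peptide and sham + PBS libraries, against 109, 119 and 103 in other microglia of the same libraries. Every neutrophil value lay far above every microglia value, and the difference was 9.56-fold (log2 fold change 3.26, SE 0.13, adjusted p = 8.98e-18, edgeR). Pgk1, which makes the first ATP of the pathway, had 456, 460 and 464 TMM-scaled CPM in neutrophils and 61.8, 66.6 and 59.6 in other microglia. The 3 neutrophil values hardly varied, and the difference was 7.32-fold (log2 fold change 2.87, SE 0.15, adjusted p = 3.95e-15, edgeR). Pkm, which makes the second, had 1023, 951 and 1021 TMM-scaled CPM in neutrophils and 189, 198 and 161 in other microglia, a 5.48-fold difference (log2 fold change 2.45, SE 0.14, adjusted p = 1.44e-14, edgeR).

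The genes between and after these steps were higher in neutrophils too, with log2 fold changes of 2.08 for Pgam1, 2.05 for Eno1, 1.98 for Ldha and 1.94 for Aldoa and SEs of 0.14. Ldha had 514, 496 and 457 TMM-scaled CPM in neutrophils, against 127, 128 and 115 in other microglia, and again no value overlapped. Tpi1 differed least, with 147, 185 and 156 TMM-scaled CPM in neutrophils and 108, 112 and 103 in other microglia (log2 fold change 0.60, SE 0.17, adjusted p = 0.00259, edgeR). This call depended on the scaling: without the TMM correction Tpi1 was at -0.24 (adjusted p = 0.167), below 0 but above the median of all genes, which then was -1.07. S100a8 and S100a9, calcium-binding proteins of neutrophils, held 13.8% to 14.8% and 16.2% to 17.2% of the UMIs of the class, and without TMM the share of higher genes among all calls was 19.9%, against 43.6% with it.

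At the entry of the pathway the direction was not shared. Hk2 had 179, 136 and 182 TMM-scaled CPM in neutrophils, against 352, 301 and 349 in other microglia, about a 0.491-fold level (log2 fold change -1.03, SE 0.14, adjusted p = 2.85e-07, edgeR). Slc2a1 was low everywhere, with 20.6, 17.0 and 25.9 TMM-scaled CPM in neutrophils and 25.9, 24.8 and 31.6 in other microglia, and did not pass the test (log2 fold change -0.41, interval of 2 SE -1.08 to 0.26, adjusted p = 0.289, edgeR). Without TMM it was lower (log2 fold change -1.25, adjusted p = 0.000977), which makes 7 genes higher and 2 lower. Other genes with the same roles were higher in neutrophils: Slc2a3 (GLUT3) had 494, 283 and 386 TMM-scaled CPM against 3.70, 3.20 and 2.98 in other microglia (log2 fold change 6.82, SE 0.18), and the hexokinases Hk1 and Hk3 were at log2 fold changes of 2.84 and 2.71 (SE 0.29 and 0.14). The median mitochondrial share of UMIs was 0.405% to 0.527% in neutrophils and 1.95% to 2.28% in other microglia, and its part in the result was not tested.

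**Figure D1:**
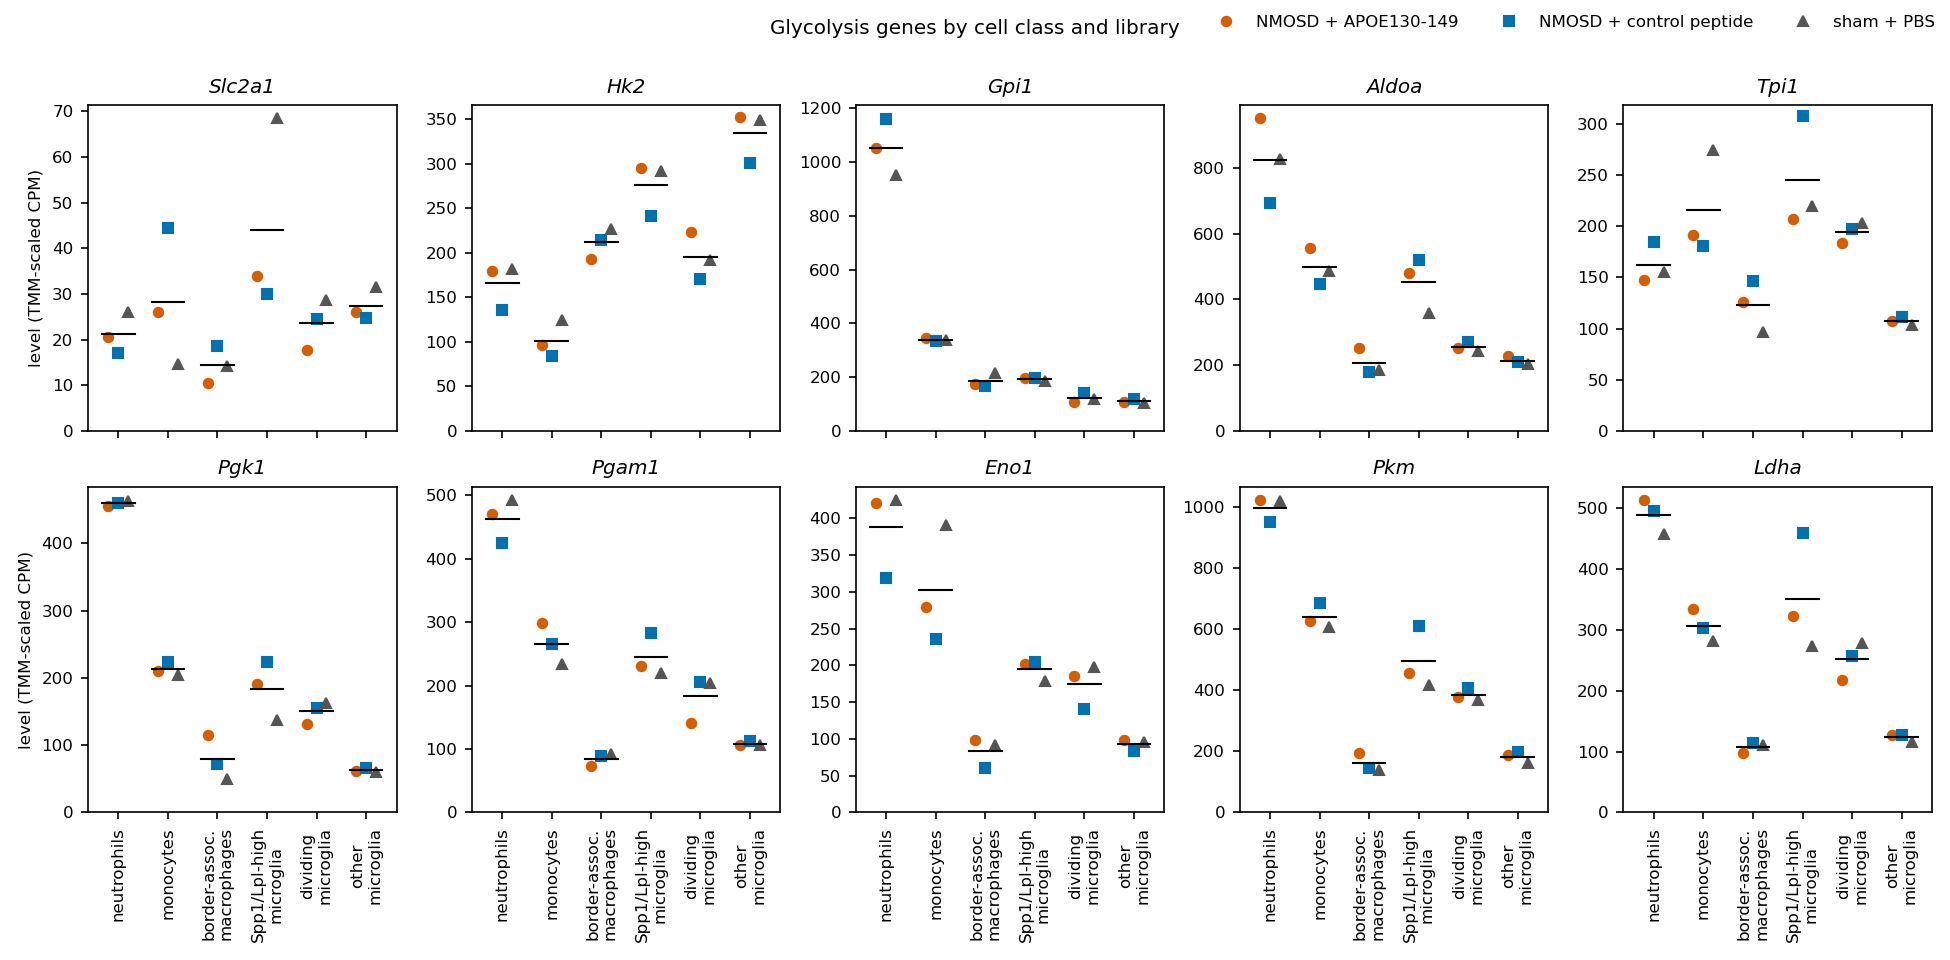
TMM-scaled CPM (vertical axes, from 0, one scale per gene) of the 10 genes in 6 cell classes, with a point for each library and a line at the mean of the 3. On this scale neutrophils have the highest mean for Gpi1, Aldoa, Pgk1, Pgam1, Eno1, Pkm and Ldha, and other microglia for Hk2.

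Monocytes, the blood precursors of macrophages, had the same 8 genes higher than other microglia and Hk2 lower. With TMM the log2 fold changes were below those of neutrophils for 7 of the 8 and larger in size for Tpi1 and Hk2. This order rests on the scaling. Without TMM, Eno1 (1.51 against 1.21), Pkm (1.65 against 1.61) and Ldha (1.15 against 1.14) were also larger in monocytes than in neutrophils. Gpi1, Aldoa, Pgk1 and Pgam1 stayed larger in neutrophils. The difference between neutrophils and monocytes was not tested. Both are set against the same other microglia. Of all genes 28.8% were higher and 31.4% lower in monocytes, and the median log2 fold change was 1.30 for the 10 genes and -0.11 for all. Pkm had 627, 687 and 607 TMM-scaled CPM in monocytes, against 189, 198 and 161 in other microglia (log2 fold change 1.81, SE 0.14, adjusted p = 1.30e-11, edgeR). Pgk1 followed with 210, 223 and 205 against 61.8, 66.6 and 59.6 TMM-scaled CPM (log2 fold change 1.76, SE 0.16). Eno1 (1.67), Gpi1 (1.61), Ldha (1.31), Pgam1 (1.30), Aldoa (1.21) and Tpi1 (0.95) were higher too, given as log2 fold changes. On the TMM scale Hk2 was at its lowest here. It had 95.9, 83.9 and 124 TMM-scaled CPM in monocytes and 352, 301 and 349 in other microglia (log2 fold change -1.75, SE 0.15, adjusted p = 1.02e-10, edgeR). In plain CPM monocytes and neutrophils overlapped for Hk2, at 94.6, 82.5 and 122 against 106, 84.7 and 115. Slc2a1 had 25.9, 44.3 and 14.6 TMM-scaled CPM in monocytes, from as few as 4 UMIs in the sham library, and did not pass the test (adjusted p = 0.445, edgeR); without the NMOSD + control peptide library its log2 fold change was -0.46 in place of 0.26.

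In border-associated macrophages 1 of the 10 genes was higher than in other microglia, 1 lower and 8 did not pass the test. These counts lie near the shares of all genes, 8% higher and 9.33% lower. The class is small, so a gene that did not pass is not shown to be alike. Gpi1 had 175, 168 and 215 TMM-scaled CPM in border-associated macrophages and 109, 119 and 103 in other microglia, without overlap (log2 fold change 0.76, SE 0.14, adjusted p = 0.000268, edgeR). Hk2 had 193, 215 and 227 TMM-scaled CPM against 352, 301 and 349 (log2 fold change -0.64, SE 0.13, adjusted p = 0.000727, edgeR). For the other genes the log2 fold changes ran from -0.89 for Slc2a1 (interval of 2 SE -1.64 to -0.15, adjusted p = 0.10) to 0.27 for Pgk1 (interval -0.14 to 0.68), and Pgk1 itself varied, with 116, 72.3 and 49.7 TMM-scaled CPM. Under a stricter marker gate Gpi1 no longer passed (log2 fold change 0.41, adjusted p = 0.131), and without the deepest cells (over 2 times the median UMIs of their library) Slc2a1 (-2.55) and Pgam1 (-0.59) were lower as well, which makes 3 genes lower. The median log2 fold change was -0.18 for the 10 genes and -0.09 for all. The part of the microglia markers counted in this class, given above, was not tested. With the DESeq2 scaling, 64.8% of the calls over all genes were higher, against 46.2% with TMM.

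**Figure D2:**
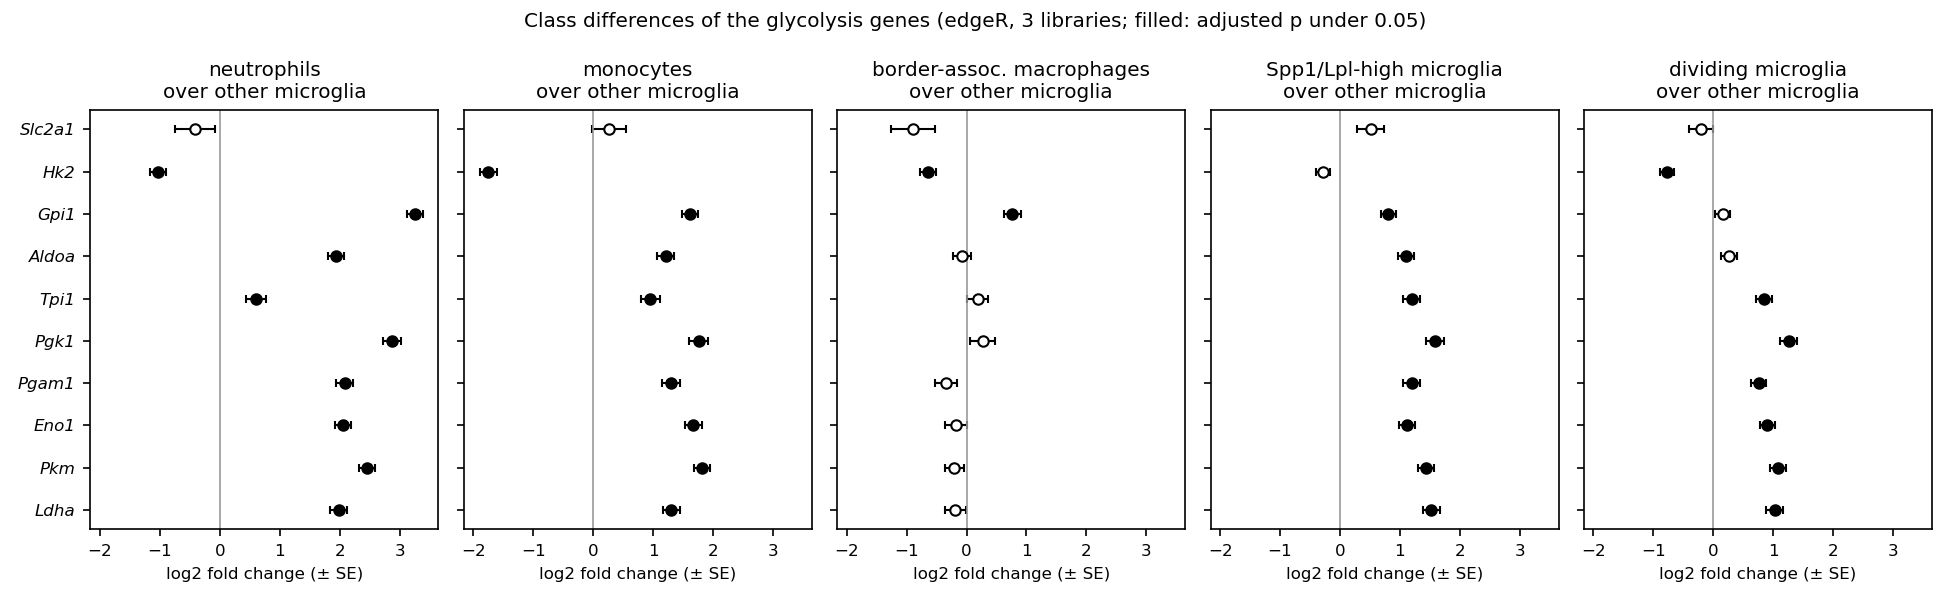
Log2 fold changes (horizontal axes, with SE) of the 10 genes in 5 classes over other microglia, from edgeR over 3 libraries. Filled points passed an adjusted p of 0.05: 8 genes are higher in neutrophils, monocytes and Spp1/Lpl-high microglia and 6 in dividing microglia, while Hk2 is left of 0 in every panel, unfilled in the Spp1/Lpl-high panel.

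Within microglia, cells rich in Spp1 (osteopontin) and Lpl (lipoprotein lipase), genes known from disease-associated and developing microglia, were higher in 8 of the 10 genes, and 0 were lower. Of all genes 12% were higher and 13.7% lower, and the median log2 fold change was 1.16 for the 10 genes and -0.10 for all. The class, of 30, 53 and 19 cells, takes non-dividing microglia with at least 10 UMIs of the pair per 10000 and is a range, not a type. Among all microglia, dividing ones included, 28, 41 and 17 cells lay between the limit and 2 times it. A further 47, 88 and 38 cells lay between 5 per 10000 and the limit. Other genes known from such cells and not used by the gate moved the same way, with 9 of 11 tested higher and 0 lower. Of the 12 microglia markers 8 were lower and 0 higher.

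Pgk1 had 191, 223 and 137 TMM-scaled CPM in Spp1/Lpl-high microglia of the NMOSD + APOE130-149, NMOSD + control peptide and sham + PBS libraries, and 61.8, 66.6 and 59.6 in other microglia. The ranges stood apart in every library, a 3.01-fold difference (log2 fold change 1.59, SE 0.15, adjusted p = 2.61e-08, edgeR). Ldha had 322, 459 and 274 TMM-scaled CPM against 127, 128 and 115 (log2 fold change 1.53, SE 0.14, adjusted p = 1.75e-08, edgeR). Pkm had 456, 612 and 417 TMM-scaled CPM against 189, 198 and 161 (log2 fold change 1.44, SE 0.13, adjusted p = 1.86e-08, edgeR). For each of these 3 genes the NMOSD + control peptide library was the highest and the sham library the lowest of the class. Tpi1 (1.20), Pgam1 (1.19), Eno1 (1.12), Aldoa (1.10) and Gpi1 (0.81) were higher as well, as log2 fold changes, and Tpi1 reached its highest level of all classes here (207, 308 and 220 TMM-scaled CPM), though that range overlapped the one in monocytes.

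Hk2 had 295, 241 and 292 TMM-scaled CPM in Spp1/Lpl-high microglia and 352, 301 and 349 in other microglia, and did not pass the test (log2 fold change -0.28, interval of 2 SE -0.52 to -0.04, adjusted p = 0.0857, edgeR); without TMM it did (-0.32, adjusted p = 0.043), which makes 1 gene lower. Slc2a1 had 33.9, 29.9 and 68.4 TMM-scaled CPM against 25.9, 24.8 and 31.6, with the sham library apart from the others, and did not pass either (log2 fold change 0.51, adjusted p = 0.0895, edgeR), but passed with only the 2 classes in the fit (0.57, adjusted p = 0.0175) and was at -0.36 under a stricter marker gate. These cells were deeper than other microglia, with medians of 21256, 17984 and 14318 UMIs against 10339, 7880 and 8231. Their gate also needs 5 UMIs of the pair, which shallow cells reach less easily, and its part in the depth was not tested. The genes also varied with depth among other microglia: their summed level was 1611, 1539 and 1610 CPM in the deepest of 3 equal groups of cells, against 1305, 1285 and 1338 CPM in the shallowest. Against other microglia of like depth, a comparison added after the data were seen, 8 genes were still higher and 0 lower, with Pgk1 at 1.60, Ldha at 1.55 and Pkm at 1.47. With the DESeq2 scaling, 61.6% of all calls were higher, against 46.7% with TMM.

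The level followed the content of Spp1 and Lpl in steps below the limit as well. For this, cells were thinned to 5000 UMIs and cells with fewer were left out. Non-dividing microglia with 0 UMIs of the pair then held a mean of 6.90, 6.71 and 6.90 UMIs of the 10 genes. Cells with 1 to 2 held 8.26, 8.43 and 8.46, and cells with 3 to 4 held 10.0, 12.7 and 12.4. At 5 to 9 the means were 12.3, 16.1 and 11.8, and at 10 or more 16.3, 15.9 and 12.9, where the last step holds 10, 29 and 8 cells and the step before it only 12 in the sham library. Up to 3 to 4 UMIs the mean was higher at each step in every library, but not beyond: the sham mean was lower at 5 to 9 than at 3 to 4, and the NMOSD + control peptide mean, with 29 cells, was lower at 10 or more than at 5 to 9. Pkm showed this in full, with 164, 177 and 154 CPM at 0 UMIs, 235, 253 and 221 CPM at 1 to 2, and 370, 463 and 432 CPM at 3 to 4. Hk2 did not: it stood at 385, 325 and 401 CPM at 0 UMIs and at 285, 286 and 445 CPM at 3 to 4. At 5 to 9 it was at 374, 250 and 300 CPM. At 10 or more, on 10, 29 and 8 cells, it was at 200, 200 and 275 CPM, below the first step in every library.

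**Figure D3:**
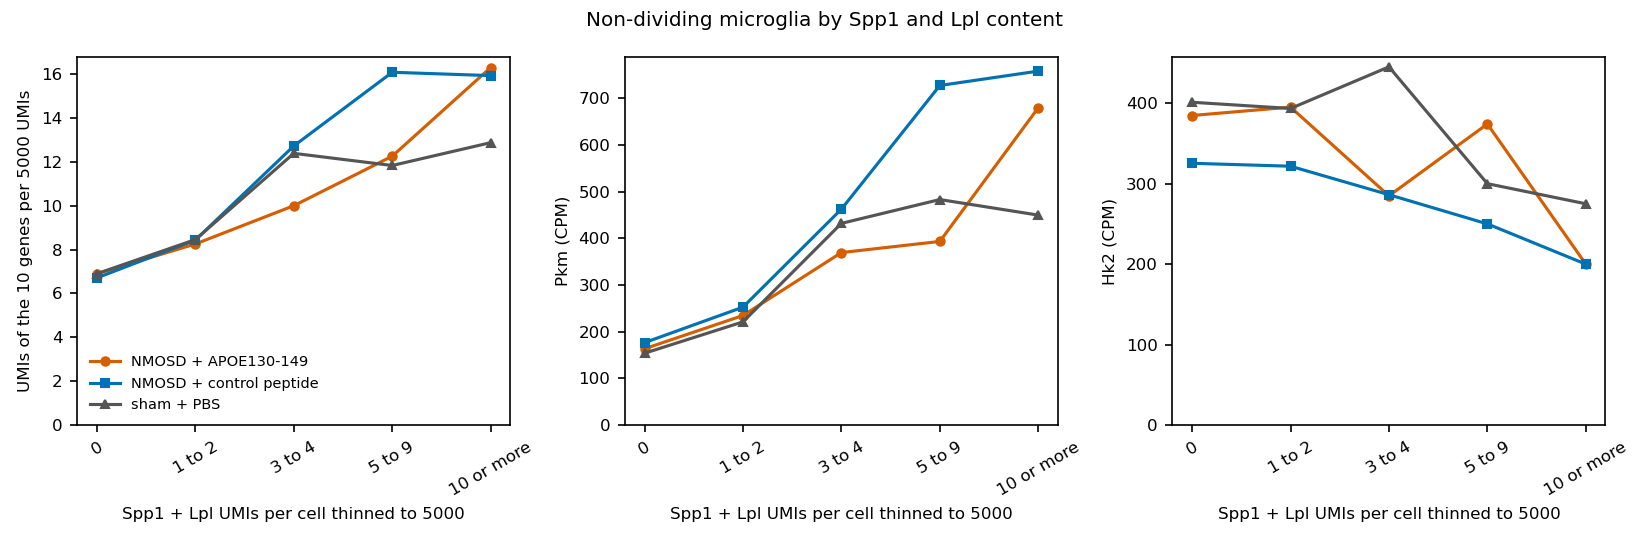
Non-dividing microglia thinned to 5000 UMIs (cells with fewer left out), in steps of their Spp1 and Lpl UMIs (horizontal axes), with the mean UMIs of the 10 genes per cell, the Pkm level and the Hk2 level (vertical axes, from 0) in 3 libraries. Glycolysis UMIs per cell stand at 6.71 to 6.90 at 0 Spp1 and Lpl UMIs and at 10.0 to 12.7 at 3 to 4, and Hk2 shows no such rise.

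Dividing microglia were higher in 6 of the 10 genes and lower in Hk2, where 15.2% of all genes were higher and 27.2% lower. The median log2 fold change was 0.80 for the 10 genes and -0.18 for all. Cells that passed both the dividing and the Spp1/Lpl limit were kept in this class. They were 9, 18 and 2 cells in the NMOSD + APOE130-149, NMOSD + control peptide and sham + PBS libraries, and their part was not tested. The 6 genes are those of the lower pathway and Tpi1: Pgk1 (1.26), Pkm (1.08), Ldha (1.02), Eno1 (0.90), Tpi1 (0.85) and Pgam1 (0.75), as log2 fold changes with SEs of 0.13 to 0.14. Pgk1 had 132, 155 and 163 TMM-scaled CPM in dividing microglia, against 61.8, 66.6 and 59.6 in other microglia, without overlap (adjusted p = 9.87e-08, edgeR). Hk2 had 223, 170 and 192 TMM-scaled CPM against 352, 301 and 349 (log2 fold change -0.78, SE 0.12, adjusted p = 7.70e-06, edgeR).

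The other 3 genes, Aldoa, Gpi1 and Slc2a1, did not pass the test in dividing cells. Aldoa had 252, 270 and 243 TMM-scaled CPM in dividing microglia and 227, 209 and 204 in other microglia, where the ranges do not overlap but the test was not passed (log2 fold change 0.27, SE 0.13, adjusted p = 0.11, edgeR). Gpi1 was at 0.16 (adjusted p = 0.319) and Slc2a1 at -0.20 (adjusted p = 0.442). Aldoa and Gpi1 passed with DESeq2 (0.39 and 0.29) and with edgeR on the 2 classes alone (0.41 and 0.30), and Aldoa without TMM (0.35, adjusted p = 0.0287), so that 7 or 8 genes were higher. DESeq2 also put the share of higher genes among all calls at 55.4%, and edgeR without TMM at 46.0%, against 35.8% with TMM. Dividing cells too were deeper, with medians of 16176, 15891 and 14278 UMIs, and against other microglia of like depth 6 genes were higher and 1 lower. The dividing gate needs 3 detected markers, which shallow cells also reach less easily, and its part in the depth was not tested.

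By mean TMM-scaled level and SD over the 3 libraries, neutrophils ranked first for 7 genes: Gpi1, Aldoa, Pgk1, Pgam1, Eno1, Pkm and Ldha. Their range stood apart from the next class for Gpi1 (1053 ± 104 TMM-scaled CPM, n = 3), Aldoa (824 ± 130), Pgk1 (460 ± 3.96), Pgam1 (463 ± 34.8) and Pkm (998 ± 41.1), and overlapped monocytes for Eno1 (388 ± 59.9) and Spp1/Lpl-high microglia for Ldha (489 ± 29.3). This order rests on the scaling, with TMM factors of 0.595 to 0.637 in neutrophils. In plain CPM neutrophils stood apart from monocytes and Spp1/Lpl-high microglia for Gpi1 and Pgk1, but not for the other 5 genes. Aldoa then had 562, 431 and 522 CPM in neutrophils and 550, 441 and 478 in monocytes, and Pkm 604, 593 and 645 in neutrophils and 619, 676 and 596 in monocytes. Summed over the 10 genes, the plain level in the NMOSD + control peptide library was 3016 CPM in neutrophils and 3158 in Spp1/Lpl-high microglia. By TMM-scaled level other microglia ranked first for Hk2 (334 ± 28.9), apart from Spp1/Lpl-high microglia in the next place (276 ± 30.5). Spp1/Lpl-high microglia ranked first for Tpi1 (245 ± 54.8) and Slc2a1 (44.1 ± 21.2), with overlap in both.

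Single cells were also compared at equal depth, which is a plain share of UMIs without the TMM correction. Cells with fewer than 5000 UMIs were left out. In the same library order these were 92, 474 and 341 other microglia, 10, 4 and 2 border-associated macrophages and 1, 12 and 3 neutrophils. Thinned to 5000 UMIs, the median cell held 14, 16 and 17 UMIs of the 10 genes among neutrophils, 13, 13.5 and 11 among monocytes, 11, 15 and 13 among Spp1/Lpl-high microglia, 9, 9 and 8 among dividing microglia, and 6 in each library among both border-associated macrophages and other microglia. The median was highest in neutrophils in every library, but in the NMOSD + control peptide library the mean was 15.6 in neutrophils and 16.6 in Spp1/Lpl-high microglia. The quartiles of the Spp1/Lpl-high microglia reached from 6.25 to 21 in the NMOSD + APOE130-149 library, wider than the 5 to 9 of other microglia there.

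The genes differed in how closely they followed each other over the 18 sums of library and class. These correlations use log2 values of plain CPM, without the TMM correction, and so another scale than the class results above. As a description, with sums that share libraries and depth, Pgam1 and Ldha were most alike (Pearson r = 0.96), followed by Pgk1 and Pkm (0.95), with Eno1 (0.92) and Aldoa (0.91) closest to Pkm. Tpi1 was closest to Ldha with only 0.53, and Hk2 closest to Slc2a1 with 0.44. Hk2 ran against Gpi1 (r = -0.85). Among 3010 genes outside the lists, those most like the summed level of the 10 were Actb (actin, 0.93), Cd52 (a surface glycoprotein of leukocytes, 0.92), Capg (an actin-capping protein, 0.89), Serf2 (0.86) and Aprt (an enzyme of adenine salvage, 0.85).

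Other genes of the pathway did not share 1 direction. Of 25 further glycolysis and transport genes, 16 had enough UMIs to be tested. In neutrophils 9 were higher and 6 lower, against 28.4% and 36.7% of all genes. Monocytes had 5 and 6, near the 28.8% and 31.4% of all genes. Border-associated macrophages had 2 and 4, against 8% and 9.33%. Spp1/Lpl-high microglia had 5 and 2, against 12% and 13.7%, and dividing microglia 6 and 6, against 15.2% and 27.2%. Gapdh, the step that the 10 genes leave out and a gene with many pseudogenes, was higher in neutrophils and Spp1/Lpl-high microglia: 2484, 1975 and 2330.5 TMM-scaled CPM in neutrophils and 1714, 2086 and 1491 in Spp1/Lpl-high microglia, against 640, 649.7 and 499 in other microglia (log2 fold changes 1.94 and 1.57, SE 0.16 each). Slc16a3, the lactate exporter MCT4, was higher in neutrophils (2.27), Spp1/Lpl-high (1.28) and dividing microglia (0.80) and lower in border-associated macrophages (-1.53). Slc2a5, the fructose transporter known as a microglia marker, and Pfkfb3, which makes an activator of phosphofructokinase, were lower in all 5 classes, Slc2a5 at -3.98 in neutrophils, -4.71 in monocytes and -0.98 in Spp1/Lpl-high microglia. Of the phosphofructokinase genes, Pfkp was higher in monocytes (6.93) and neutrophils (5.14), where Pfkl was lower (-0.73 and -1.53), all as log2 fold changes that passed the test.

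The pentose phosphate pathway branches from glycolysis after hexokinase and makes NADPH, the fuel of the oxidative burst of phagocytes. All 7 of its listed genes were higher in neutrophils and all 7 in monocytes, with a median log2 fold change of 2.79 and 1.13. Of all genes 28.4% were higher in neutrophils and 28.8% in monocytes. Tkt (transketolase) had 1314, 1534 and 1332 TMM-scaled CPM in neutrophils and 334, 353 and 336 in monocytes, against 85.2, 92.6 and 74.8 in other microglia. G6pdx, the entry enzyme, was at a log2 fold change of 3.73 (SE 0.13) in neutrophils and 1.73 (SE 0.18) in monocytes. In Spp1/Lpl-high microglia 3 of the 7 were higher (Tkt 0.64, Pgls 0.48, Pgd 0.42) and in dividing microglia 2 (Tkt 0.52, Pgls 0.32). In border-associated macrophages 1 was higher (Tkt 0.47), and 0 were lower in each of these classes. The shares of all genes that were higher were 12%, 15.2% and 8% in that order.

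**Figure D4:**
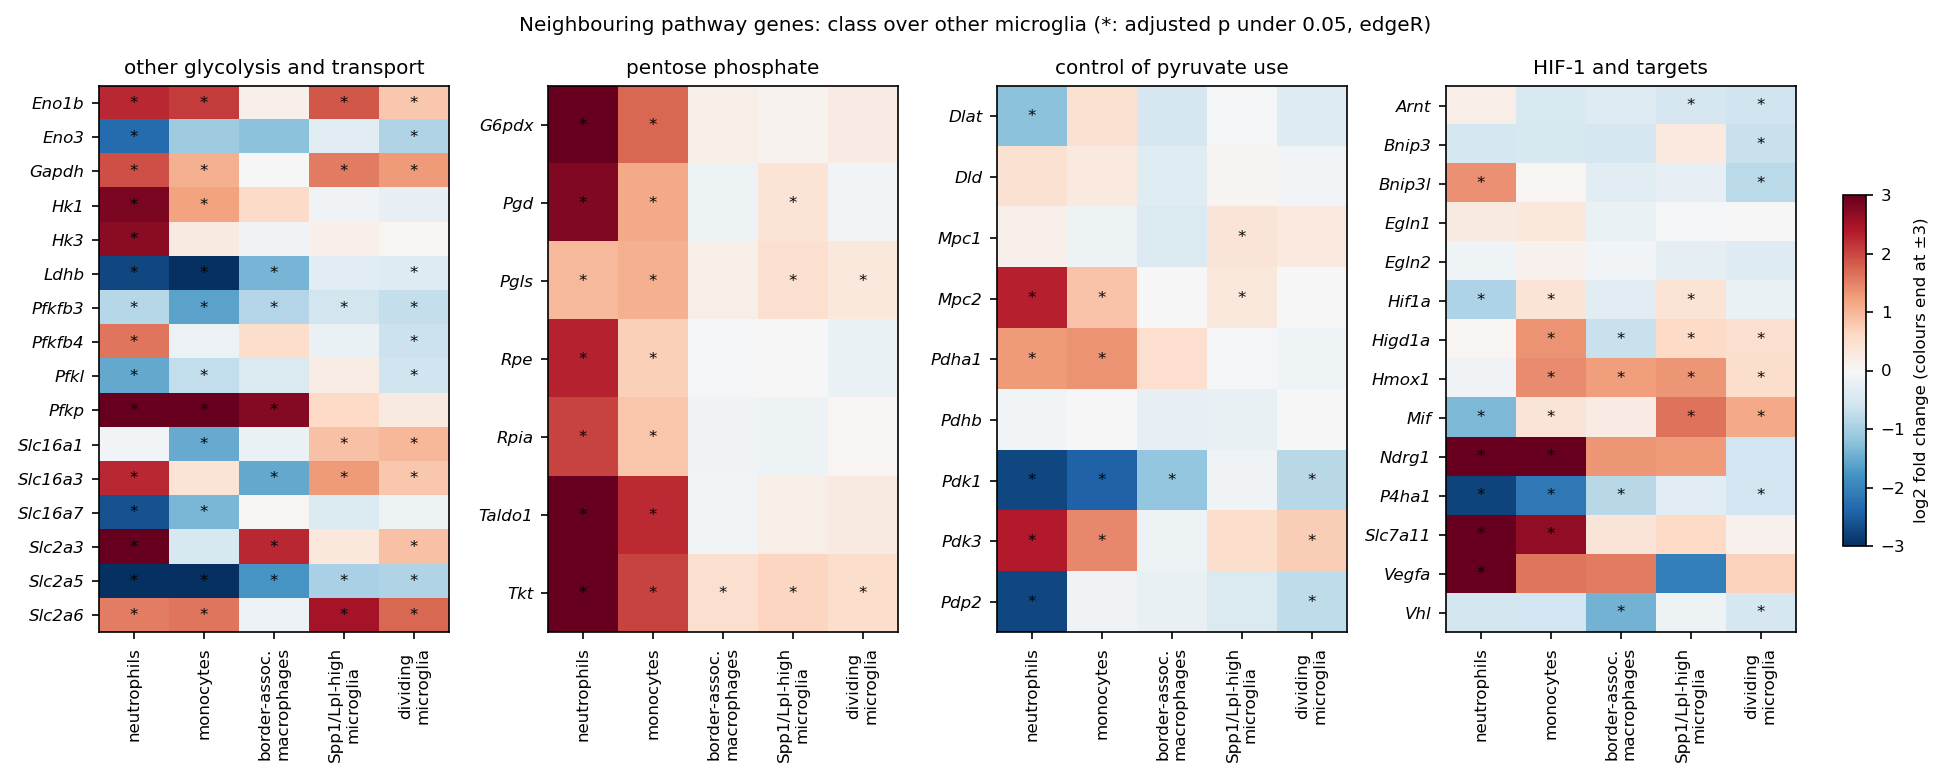
Log2 fold changes (colours, ending at ±3) of further pathway genes in 5 classes over other microglia, in 4 lists, with a star at an adjusted p under 0.05 from edgeR. The pentose phosphate panel is red and starred throughout in neutrophils and monocytes, 7 of 7 genes each, while the glycolysis panel holds both colours.

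Between treatments the 10 genes differed little in microglia as a whole (1593, 4104 and 2943 cells). No gene reached 1.5-fold in any comparison: 0 of 10 for NMOSD + APOE130-149 against NMOSD + control peptide, where 0.445% of all genes with 10 CPM or more were higher and 0.0602% lower, 0 of 10 for NMOSD + control peptide against sham + PBS (1.42% and 0.96%), and 0 of 10 for NMOSD + APOE130-149 against sham + PBS (1.61% and 1.06%). The median log2 ratio of the 10 genes was -0.04, 0.08 and 0.04 in that order, and of all genes 0.01, -0.08 and -0.05. Levels in this paragraph and the next are plain CPM, and the ranges in brackets are exact 95% intervals that cover counting error only, not differences between mice. The comparisons share libraries, so the 3 are not independent. Summed immediate early genes, a known sign of cell handling as well as of activation, were at 11047, 7631 and 1724 CPM in these cells, summed choroid plexus and ependymal markers at 68.1, 88.8 and 3.89 CPM and summed neutrophil markers at 451, 330 and 226 CPM, and their part in the ratios was not tested.

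Hk2 showed the lowest level with the control peptide, at 375 (368 to 383) CPM with APOE130-149, 316 (311 to 321) with the control peptide and 387 (380 to 394) in sham. The ratio was 1.19 (1.16 to 1.22) for APOE130-149 against the control peptide and 0.817 (0.798 to 0.838) for the control peptide against sham. Eno1 too was lowest with the control peptide, with 115 (111 to 119), 96.6 (93.8 to 99.3) and 112 (108 to 116) CPM. Pkm ran the other way, with 225 (219 to 230.5) and 234 (229.8 to 238) CPM in the APOE130-149 and control peptide libraries, against 191 (186 to 197) in sham, and both ratios to sham, 1.17 and 1.22, had intervals above 1. Slc2a1 was lower in both NMOSD libraries, at 28.1 (26.1 to 30.2) and 26.8 (25.4 to 28.3) CPM, against 35.8 (33.7 to 38.1) in sham, ratios of 0.785 (0.712 to 0.864) and 0.749 (0.690 to 0.813). No other gene had a ratio to sham below 0.8.

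Ldha was slightly higher in both NMOSD libraries, at 150.1 (145 to 155) and 152 (149 to 156) CPM, against 137 (133 to 142) in sham. Aldoa had 257 (251 to 263), 236 (232 to 240.2) and 233 (227 to 238) CPM, highest with APOE130-149. For Gpi1, Tpi1, Pgk1 and Pgam1 all ratios lay between 0.926 and 1.12. Of 14 further glycolysis and transport genes at 10 CPM or more, only Eno1b passed 1.5-fold, with 20.1 CPM with APOE130-149, 13.3 with the control peptide and 13.1 in sham (ratios 1.504, interval 1.34 to 1.69, and 1.53, interval 1.33 to 1.75). Eno1b shares its 3′ end with Eno1, so this value is uncertain.

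**Figure D5:**
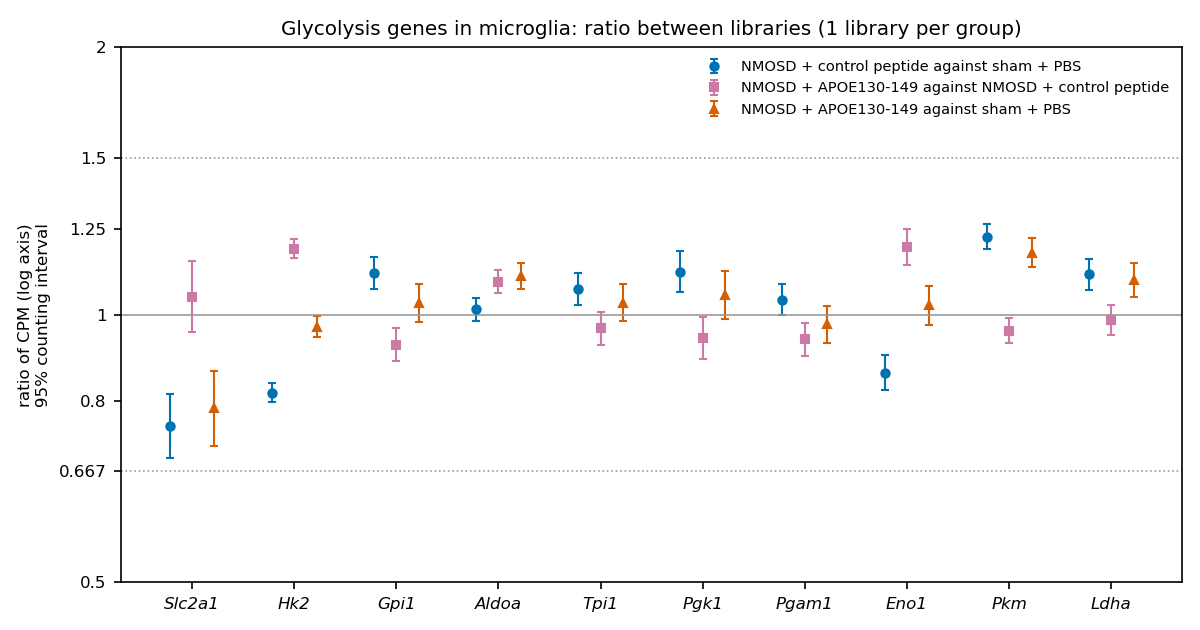
Ratios of CPM between libraries (vertical axis, log scale) for the 10 genes in all microglia, with exact 95% counting intervals, 1 library per group. All points lie between the dotted lines at 1.5-fold, and Slc2a1 sits lowest, at 0.749 and 0.785 against sham.

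Within Spp1/Lpl-high microglia the counting interval of the ratio did not hold 1 for 4 of the 10 genes with APOE130-149 against the control peptide. The same was so for 7 with the control peptide against sham (5 higher, 2 lower) and for 2 with APOE130-149 against sham (1 higher, 1 lower). In other microglia, with far more UMIs, the counts were 7, 7 and 4 in that order. The share of all genes by this rule was not computed, so the counts are not a result particular to these genes. Slc2a1 was lower in both NMOSD libraries, with 30 UMIs (36.5 CPM) and 36 UMIs (30.7 CPM), against 23 UMIs (74.8 CPM) in sham, ratios of 0.488 (0.274 to 0.880) and 0.410 (0.236 to 0.725). Hk2 was at 0.775 (0.615 to 0.985) for the control peptide against sham. Ldha had 347, 471 and 299 CPM in the NMOSD + APOE130-149, NMOSD + control peptide and sham + PBS libraries. The ratio was 0.736 (0.636 to 0.851) for APOE130-149 against the control peptide and 1.57 (1.26 to 1.99) for the control peptide against sham. Pkm (490.3, 629 and 455 CPM) and Tpi1 (223, 316 and 241 CPM) were likewise highest with the control peptide, with ratios of 0.780 (0.689 to 0.882) and 0.705 (0.587 to 0.843) for APOE130-149 against it. These values rest on 30, 53 and 19 cells whose Spp1 and Lpl content was not matched. In neutrophils the summed level of the 10 genes was 5235, 4839 and 4998 TMM-scaled CPM, and in monocytes Eno1 was lower in both NMOSD libraries, at 276 and 232 CPM, against 384 in sham (ratios 0.718, interval 0.545 to 0.948, and 0.604, interval 0.468 to 0.781).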

How the data were processed

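The files deposited by the authors hold raw UMI counts (whole numbers, one matrix per library), as the file headers and values show. The submitters' processing notes name mm10, Cell Ranger (5.0.1) and Seurat (4.3.0), whereas the file headers name cellranger 7.0.1. Which version made the counts, and whether intronic reads or strand were used, is not given in the sources used here.

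A cell needed 500 genes or more and a mitochondrial share of 10% or less. Cells with 2000 UMIs or more were gated by summed marker UMIs per 10000: microglia at 150, neutrophils at 300, border-associated macrophages and monocytes at 20, dividing and Spp1/Lpl-high microglia at 10 (the last also with 5 UMIs), with limits on markers of other classes. All gate limits were chosen with the data in view. No doublet caller was run and doublets stayed in. UMIs were summed per library and class (18 sums, of 260325 to 46099297 UMIs) and tested with edgeR 4.0.16 in R 4.3.3, with TMM factors and the library as a block; DESeq2 1.42.0 was an alternative. The edgeR script was tested on simulated data. Members, lists and the rule for named genes (all members, at most 4 list genes per direction) were chosen with earlier results of these data known; further list genes were named after their values were seen. Python 3.11.15, numpy 2.4.6, scipy 1.17.1, pandas 2.3.3 and matplotlib 3.10.9 were used.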

Additional observations from a re-analysis of the deposited data

Results flagged for a closer look

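The cells that no marker gate took (339, 759 and 1203 in the NMOSD + APOE130-149, NMOSD + control peptide and sham + PBS libraries) enter none of the comparisons above, yet carried more of the 10 genes than other microglia, which held 1526, 1459 and 1494 CPM. Their summed level was 2113 (exact 95% interval 2072 to 2155), 2199.96 (2170.3 to 2229.9) and 2022 (1971 to 2074) CPM, and in the NMOSD + control peptide library the interval lay above the one in sham. Their median depth was 2941, 2830 and 1262 UMIs, and 155, 351 and 1035 of them lay below the limit of 2000 UMIs. With 1 library per group no test between the libraries was possible.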

How the results depend on the processing

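No paired analysis between treatments was possible because each group has 1 library, and the labels give no replicate numbers. The tests between classes had the library as a block. Leaving out each library in turn left the counts of higher and lower genes at 8 and 1 in neutrophils and monocytes, 1 and 1 in border-associated macrophages, 8 and 0 in Spp1/Lpl-high and 6 and 1 in dividing microglia. Of the counts of called genes, 180 recomputed values stayed within 1.5 times the main count and 6 moved: 2 lower in neutrophils and 1 in Spp1/Lpl-high microglia without TMM, 3 lower in border-associated macrophages without deep cells, 0 higher there under a stricter gate, and, at a smaller fold, 1 lower (Slc2a1) for each NMOSD library against sham. Between classes single genes turned sign as follows, as log2 values, and only Tpi1 in neutrophils (-0.24 without TMM) had passed the test before: Slc2a1 0.00059 in neutrophils without deep cells, -0.46 to 0.53 in monocytes as each library was left out, -0.36 in Spp1/Lpl-high microglia under a stricter gate and 0.13 in dividing microglia gated on thinned cells; in border-associated macrophages Aldoa 0.024 with DESeq2, -0.16 to 0.020 as each library was left out, 0.082 without deep cells and 0.10 gated on thinned cells, Pgk1 -0.028 to 0.49 as each library was left out, Eno1 0.021 without deep cells and 0.081 gated on thinned cells, Tpi1 -0.10 under a stricter gate and Pkm 0.13 gated on thinned cells; in dividing microglia Gpi1 -0.082 and Aldoa -0.11 without deep cells, and Aldoa -0.12 under a stricter gate. Of the ratios between treatments in microglia, Hk2 turned to 0.0024 for NMOSD + APOE130-149 against sham with median-of-ratios scaling. Ratios whose counting interval held 1 also turned under some alternative: Slc2a1 (as far as -0.14) and Ldha (0.027) for NMOSD + APOE130-149 against the control peptide, and Pgam1 (0.011) and Eno1 (-0.0031) for it against sham. The cause was not tested. Precision between treatments is limited by 1 library per group and, in the small classes, by as few as 19 cells.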

Other observations

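The listed targets and partners of HIF-1 outside glycolysis moved in both directions, with 14 of 20 tested. In Spp1/Lpl-high microglia 4 were higher and 1 lower, led by Mif (a cytokine, log2 fold change 1.62, SE 0.14) and Hmox1 (haem oxygenase, 1.33, SE 0.20), with Hif1a itself at 0.42 (SE 0.14) and Arnt, its partner, at -0.52 (SE 0.19). Mif had 426, 506 and 333 TMM-scaled CPM in Spp1/Lpl-high microglia, against 137, 141 and 134 in other microglia. In dividing microglia Mif was higher as well (1.13), while 5 of the list were lower. In neutrophils the list held 4 higher and 3 lower genes, with Slc7a11 (a cystine transporter, 6.85) and Vegfa (4.43) higher and Mif (-1.35) and Hif1a (-0.92) lower. All are edgeR log2 fold changes over other microglia that passed an adjusted p of 0.05. By the same rule 28.4% of all genes were higher and 36.7% lower in neutrophils. These shares were 12% and 13.7% in Spp1/Lpl-high microglia and 15.2% and 27.2% in dividing microglia.

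Genes that steer pyruvate into mitochondria also split, with 9 of 13 tested. Mpc2, a subunit of the mitochondrial pyruvate carrier, was higher in neutrophils (2.34, SE 0.11), monocytes (0.86, SE 0.13) and Spp1/Lpl-high microglia (0.34, SE 0.12). Of the kinases that inhibit pyruvate dehydrogenase, Pdk1 was lower in neutrophils (-2.73), monocytes (-2.43), border-associated macrophages (-1.17) and dividing microglia (-0.84), while Pdk3 was higher in neutrophils (2.37), monocytes (1.44) and dividing microglia (0.73). In microglia as a whole 0 of the genes at 10 CPM or more in either group, 11 and 9 of those listed, reached 1.5-fold between any pair of libraries. Of all genes 0.0602% to 1.61% did so per comparison and direction, so a count of 0 is not particular to these short lists.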
